A study of Rattus norvegicus with 24 samples.

Results

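Smooth muscle contractile genes were represented by 2 genes among the 32883 of the counts table, Actg2 (ENSRNOG00000029401) and Cnn1 (ENSRNOG00000027736). They are those of a list of 5 (Actg2, Acta2, Myh11, Cnn1 and Tagln) whose identifier the study's gene table pairs with a symbol; Acta2, Myh11 and Tagln were not analysed here. RNA was sequenced from the lungs of 24 male wild-type Sprague-Dawley (SD) rats, 1 library per rat. Monocrotaline (MCT), a plant alkaloid used to induce pulmonary arterial hypertension, was injected once into the peritoneum at 50 mg per kg in MCT rats, and PBS buffer in PBS (control) rats, and lungs washed free of blood with PBS were taken after 1, 2 or 3 weeks from 4 MCT rats and 4 PBS rats each. The ages of the rats were not given in the sources used here. A library holds the RNA of a homogenized piece of lung tissue, with vessel wall, airway and other cells together. How much of each a piece held was not measured.

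Smooth muscle cells of arteries, veins and airways contract when myosin slides along thin filaments of actin. Calcium that enters the cell binds calmodulin, myosin light chain is phosphorylated, and myosin phosphatase reverses this step, while nitric oxide relaxes the muscle through soluble guanylate cyclase and cyclic GMP. Actg2 encodes the gamma actin of smooth muscle, and Cnn1 encodes calponin 1, an actin-binding protein that restrains the myosin motor. Both are widely used as markers of the contractile state of smooth muscle, and genes of this class are known to be driven by serum response factor bound to the CArG box.

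On the rat assembly of the counts table (Rnor_6.0), Actg2 lies on the minus strand at chr4:115215060-115239723 with 9 annotated exons, 1420 exonic bases and a first intron of 9941 bases. It shares its locus with 1 other annotated gene on the same strand, which had 0 CPM in the mean. Cnn1 lies on the plus strand at chr8:23113048-23121761 with 7 exons and 1500 exonic bases, and overlaps no other annotated gene. Counts were taken over exons. The coding sequences of the actin genes are nearly alike, so reads can be shared between Actg2 and its paralogs, and how the counting treated reads with several alignments is not given in the sources used here.

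The promoter windows of Cnn1 and of the 2 other genes that followed the members most closely across rats and carry a muscle name, Des and Actc1, are shown because these genes moved together between rats. Each window runs from 250 bases before to 50 after the RefSeq start on GRCr8, a build other than that of the counts. Capitals mark a CArG box, searched by name in its strict form of 10 letters, whose core is A or T only. It reads the same on both strands.

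Cnn1, chr8:28908187-28908486, plus strand: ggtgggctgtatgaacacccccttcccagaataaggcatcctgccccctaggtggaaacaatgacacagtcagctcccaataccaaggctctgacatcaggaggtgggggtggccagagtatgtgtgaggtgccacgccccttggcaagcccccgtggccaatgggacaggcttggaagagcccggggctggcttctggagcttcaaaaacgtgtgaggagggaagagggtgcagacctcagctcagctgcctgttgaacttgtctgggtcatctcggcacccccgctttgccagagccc
Des, chr9:84299376-84299675, plus strand: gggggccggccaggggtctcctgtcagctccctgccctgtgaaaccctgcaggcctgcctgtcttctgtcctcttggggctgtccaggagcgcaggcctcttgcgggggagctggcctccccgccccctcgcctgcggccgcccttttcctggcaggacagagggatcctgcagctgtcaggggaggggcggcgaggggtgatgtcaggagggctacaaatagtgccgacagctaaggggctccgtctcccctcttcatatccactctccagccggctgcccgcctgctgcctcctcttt
Actc1, chr3:121271778-121272077, minus strand: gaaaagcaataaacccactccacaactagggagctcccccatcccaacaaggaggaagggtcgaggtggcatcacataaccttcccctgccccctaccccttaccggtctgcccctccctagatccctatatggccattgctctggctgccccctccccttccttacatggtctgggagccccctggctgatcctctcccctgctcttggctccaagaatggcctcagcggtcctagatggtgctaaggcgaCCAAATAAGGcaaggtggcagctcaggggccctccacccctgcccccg

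Actc1 held 1 match, which began 2 bases after the start, and the windows of Cnn1 and Des held none. Among all 33469 promoter windows of this length, 548 (1.64%) held a match. Among 18 windows of 15 genes of the contractile, cytoskeletal and actin lists, 4 held one: Actc1, Actg1 and both windows of Fhl2. The RefSeq start used for the Actg2 window lies 10340 bases inside its gene, and this window is not shown. A match is a string of letters, and serum response factor was not measured here.

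The libraries held 19804731 to 32835200 counts in genes. The 2 smallest were PBS replicates 1 and 3 of Week 1 (19804731 and 20509197 counts), which also stood apart in the genes detected, 14706 and 12491 with at least 10 counts, against 15614 to 16428 in the other 22 libraries. Week 1 log2 fold changes of the members are therefore also given without them. The 2 members had 564 to 4745 counts per library, so counting error was small beside the differences between rats. Levels are given as normalised CPM (counts scaled to library size, with TMM factors over all libraries). A gene was called in a week when edgeR's quasi-likelihood test of MCT against PBS rats gave a Benjamini-Hochberg adjusted p below 0.05 and the fold change exceeded 1.5.

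Actg2 and Cnn1 were higher in MCT rats in Week 3, by about the same amount. Actg2, the smooth muscle actin, had 65.5, 142, 149 and 116 CPM in MCT rats, against 51.9, 50.9, 41.0 and 76.6 CPM in PBS rats. MCT replicates 2, 3 and 4 lay above all 4 PBS rats, and MCT replicate 1 lay below the highest PBS rat, so the groups overlapped by this rat. Actg2 averaged 118 ± 37.8 CPM in MCT rats and 55.1 ± 15.2 CPM in PBS rats (SD, n = 4 each). Its log2 fold change in Week 3 was 1.08 (SE 0.26), and edgeR's quasi-likelihood test gave an adjusted p of 0.00922.

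Cnn1, the calponin gene, had 51.8, 126, 124 and 107 CPM in MCT rats of Week 3, against 49.9, 47.2, 27.6 and 63.2 CPM in PBS rats. The same MCT rat, replicate 1, was the low one, below the highest PBS rat, and the other MCT rats exceeded every PBS rat. Cnn1 averaged 102 ± 34.7 CPM in MCT rats and 47.0 ± 14.7 CPM in PBS rats (SD, n = 4 each). The log2 fold change of Cnn1 in Week 3 was 1.11 (SE 0.29) with an adjusted p of 0.0153 by edgeR. Both members were thus called higher in Week 3, against 11.1% of the 16138 genes tested. They carry a symbol because the study called them in these samples, so this share is not a like comparison. In 16.3% of those genes all 4 MCT rats lay above all 4 PBS rats, which was true of neither member. CPM are shares of a library. In lung pieces, more smooth muscle cells, more RNA of these genes per cell and less RNA of other cells cannot be told apart. The same holds for pieces that differ in their part of vessel or airway wall.

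**Figure D1:**
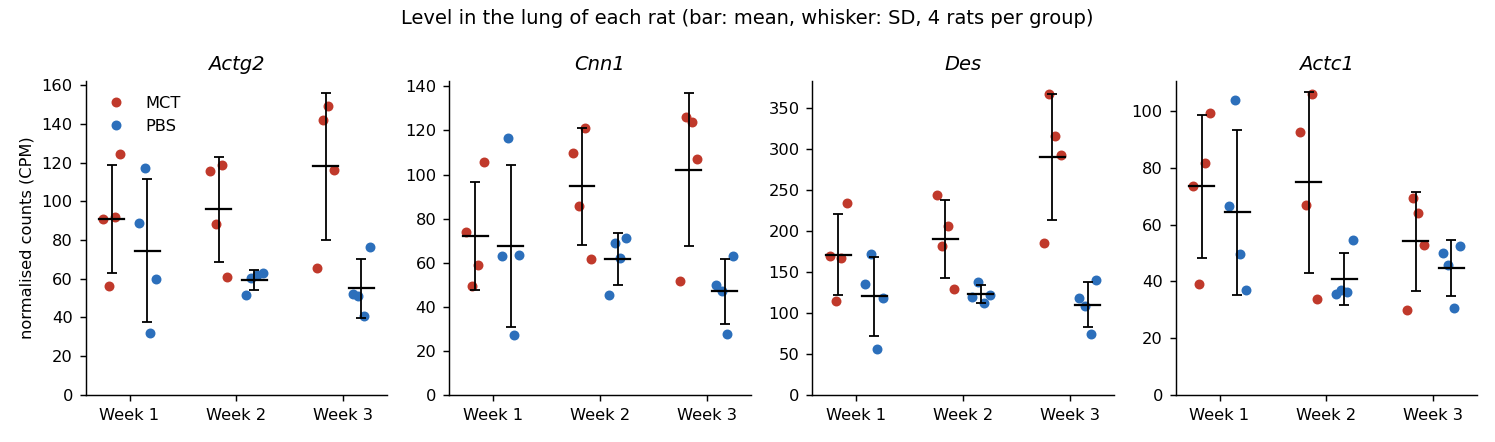
Normalised counts (CPM, vertical axes from 0) of Actg2, Cnn1, Des and Actc1 in each rat by week, MCT rats in red left of PBS rats in blue; black bars are means and whiskers SD over 4 rats. In Week 3 the MCT rats of Actg2 lay at 65.5 to 149 CPM and the PBS rats at 41.0 to 76.6 CPM, while Actc1 had 30.1 to 69.3 CPM in MCT rats and 30.7 to 52.4 CPM in PBS rats.

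In Week 2 the group means of MCT rats lay between those of Weeks 1 and 3, with overlap between their rats. Actg2 had 116, 88.1, 119 and 60.8 CPM in MCT rats, against 51.7, 60.6, 62.0 and 63.2 CPM in PBS rats. MCT replicate 4 lay among the PBS rats, and the other MCT rats lay above all of them. Cnn1 had 109.9, 85.8, 121 and 61.8 CPM in MCT rats, against 45.1, 68.8, 62.0 and 71.1 CPM in PBS rats, and MCT replicate 4 was again the one among the PBS rats. The log2 fold changes in Week 2 were 0.69 (SE 0.18) for Actg2 and 0.61 (SE 0.20) for Cnn1. Both symbols come from the study's own list of genes higher in Week 2, so these differences are given as a description, not as a test. The Week 3 values come from other rats, but the study's lists of called genes cover those rats too. The Week 3 calls are therefore not independent evidence either. By the same thresholds as in Week 3, Actg2 was called and Cnn1 was not, beside 6% of 16108 genes called higher. In 12% of those genes all 4 MCT rats lay above all 4 PBS rats, which was true of neither member. Both calls depended on single rats. Actg2 was no longer called without PBS replicate 1 (0.62), PBS replicate 2 (0.70), MCT replicate 1 (0.58) or MCT replicate 3 (0.58), and Cnn1 was called without MCT replicate 4 (0.77).

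In Week 1 no difference was detected in either member. Actg2 had 90.6, 56.0, 91.6 and 125 CPM in MCT rats, against 89.0, 117, 32.1 and 59.8 CPM in PBS rats. Cnn1 had 73.9, 49.4, 59.1 and 106 CPM in MCT rats, against 62.9, 117, 27.4 and 63.7 CPM in PBS rats. The PBS rats spanned the widest range of any group, with replicate 2 at the top and replicate 3, one of the 2 small libraries, at the bottom of both genes. The log2 fold changes in Week 1 were 0.27 (SE 0.40) for Actg2 and 0.07 (SE 0.42) for Cnn1, and neither was called by edgeR, DESeq2 or limma-voom, or passed an unadjusted p of 0.05 by edgeR, beside 0.0703% of 15658 genes called higher. The groups overlapped in both genes, beside 5.05% of genes in which all 4 MCT rats lay above all 4 PBS rats. Without PBS replicates 1 and 3 of Week 1 the log2 fold change was 0.034 for Actg2 and -0.33 for Cnn1, and neither was called.

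The change of the MCT effect between weeks was tested in 1 model of the 24 libraries. From Week 1 to Week 3 the MCT effect changed by 0.82 on the log2 scale for Actg2 (95% interval -0.14 to 1.78) and by 1.03 for Cnn1 (-0.02 to 2.08). By edgeR's quasi-likelihood test neither change passed, with an adjusted p of 0.319 for Actg2 and 0.241 for Cnn1, beside 4.38% of 17206 genes that did. Without PBS replicate 3 of Week 1 the change passed for both by edgeR, at 1.07 for Actg2 (adjusted p = 0.0492) and 1.29 for Cnn1 (adjusted p = 0.0327). The changes from Week 1 to Week 2 (0.41 for Actg2 and 0.53 for Cnn1) and from Week 2 to Week 3 (0.40 for Actg2 and 0.50 for Cnn1) did not pass either, beside 0% and 0.0697% of genes. That Week 3 was called and Week 1 was not is therefore no evidence of a difference between these weeks.

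By group mean the order was the same for both members, from low to high: PBS Week 3, PBS Week 2, PBS Week 1, MCT Week 1, MCT Week 2 and MCT Week 3. Per kilobase of exon, Actg2 had 83.1 ± 26.6 and Cnn1 68.2 ± 23.1 CPM in MCT rats of Week 3, and 38.8 ± 10.7 and 31.3 ± 9.81 CPM in PBS rats of Week 3 (SD, n = 4 each). Every pair of neighbours in this order overlapped in its rats. By value, the PBS means were lower and the MCT means higher in later weeks.

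The spread between rats was large for both genes. The SD of log2 CPM within groups, pooled over the 22 libraries other than PBS replicates 1 and 3 of Week 1, was 0.44 for Actg2 and 0.48 for Cnn1, against a median of 0.27 over 15377 genes. Among genes of a like level (within a factor of 2 of the mean), 95.9% varied less between rats than Actg2 and 96.5% less than Cnn1.

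Rats with high Actg2 had high Cnn1. After subtraction of the group means, log2 CPM of the pair correlated with Pearson's r = 0.94 and Spearman's rho = 0.93 over 22 rats (permutation p = 1e-05 for each, two-sided, within groups, 100000 permutations and the smallest they can give). Without the 2 rats farthest from the median of Actg2, r was 0.93 over 20 rats. Over all 24 rats r was 0.94, and within Weeks 2 and 3 alone it was 0.94 and 0.96 over 8 rats each. Of 15376 other genes, Cnn1 had the highest correlation with Actg2, and Actg2 had rank 3 with Cnn1.

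**Figure D2:**
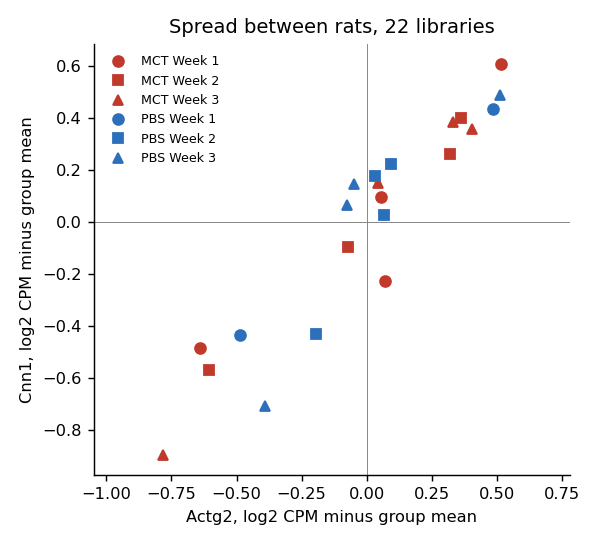
Deviation of log2 CPM from the group mean for Cnn1 (vertical) against Actg2 (horizontal), 1 point per rat for 22 libraries, colour for treatment and shape for week. The points follow 1 rising line in MCT and PBS rats alike (r = 0.94), and MCT replicate 1 of Week 3 is the lowest of both genes, at -0.78 for Actg2 and -0.90 for Cnn1.

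Few other genes followed the members so closely. Only 5 genes had r above 0.9 with Actg2 and 7 with Cnn1 over the 22 rats. The named genes most like Actg2 were Cnn1, Actc1 (r = 0.93), Des (0.93), B4galt7 (0.80) and Lamtor2 (0.80). Those most like Cnn1 were Actg2, Des (0.93), Actc1 (0.88), Cnpy4 (0.87) and Drap1 (0.84). A pair of identifiers without a symbol here, ENSRNOG00000017628 and ENSRNOG00000058039, had r = 0.93 with Actg2 and 0.97 and 0.96 with Cnn1. Both were called higher in Week 3, with log2 fold changes of 1.04 and 0.99. Also without a symbol, ENSRNOG00000051548 had r = 0.94 with Cnn1 and was not called in Week 3, at 0.35. ENSRNOG00000016731 had r = 0.93 with Cnn1 and was called higher in Week 3, at 1.53. These correlations are descriptions over libraries that share their tissue and depth.

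Des, the gene of desmin, the intermediate filament of muscle, followed the members between rats. In Week 3 Des had 186, 368, 316 and 293 CPM in MCT rats, against 118, 108, 74.4 and 141 CPM in PBS rats. All 4 MCT rats lay above all 4 PBS rats, and the lowest was again replicate 1. The log2 fold change of Des in Week 3 was 1.38 (SE 0.23), with an adjusted p of 0.0014 by edgeR, and it was 0.49 (SE 0.35) in Week 1, or 0.24 without PBS replicates 1 and 3, and 0.63 (SE 0.16) in Week 2.

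Actc1, the cardiac muscle actin, tracked Actg2 between rats and was not called in Week 3. Actc1 had 30.1, 69.3, 64.1 and 53.0 CPM in MCT rats of Week 3, against 49.9, 45.9, 30.7 and 52.4 CPM in PBS rats, and MCT replicates 2, 3 and 4 lay above every PBS rat while replicate 1 lay below them all. Its log2 fold change was 0.26 (SE 0.25) in Week 3 (0.12 without PBS replicate 3 and 0.46 without MCT replicate 1, not called in either) and 0.87 (SE 0.29) in Week 2, and edgeR called it in neither week (adjusted p = 0.458 and 0.0623). Without MCT replicate 4 of Week 2 it was called there, at 1.11. The log2 ratio of Actc1 to Actg2 within a library was -1.13 ± 0.08 in MCT rats and -0.29 ± 0.23 in PBS rats of Week 3 (SD, n = 4 each). The ranges of this ratio did not overlap, at -1.22 to -1.03 in MCT rats and -0.55 to -0.06 in PBS rats. The exact two-sided permutation test gave p = 0.0286, the smallest that 4 against 4 allows, and 0.257 after Benjamini-Hochberg adjustment over the 9 ratios compared (Cnn1, Des and Actc1 to Actg2 in 3 weeks), so it did not pass. This ratio was chosen after the values were seen. The ratio of Cnn1 to Actg2 differed by 0.03 between MCT and PBS rats of Week 3 (exact permutation p = 0.857), less than the spread between rats.

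Genes of the contractile apparatus moved in both directions. Of a list of 41 contractile and cytoskeletal genes, 18 carry a symbol here and all 18 were tested. Both members are among these 18 and enter the counts and medians below. The study's table names a gene only where the study called it in these samples, so the counts over named lists are not independent evidence of a direction. In Week 3, 9 were called higher and 4 lower, beside 11.1% of genes called higher and 11% called lower, and the median log2 fold change of the 18 was 0.62, against 0.01 over all genes. In Week 2, 7 were called higher and 2 lower (3.43% of all genes were called lower), with a median of 0.47, and 3 were called higher without PBS replicate 1 and 4 without MCT replicate 1. In Week 1 edgeR called none, with a median of -0.06. At an unadjusted p below 0.05 it counted 2 higher and 1 lower there, DESeq2 called 1 higher, and limma-voom called none.

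The genes called higher in Week 3 besides the members and Des were Fhl2, Fhl3, Pdlim7, Actn1, Mustn1 and Map3k7cl. Fhl2 and Fhl3, LIM-domain proteins that bind actin and signalling proteins, had log2 fold changes of 1.48 (SE 0.21) and 1.05 (SE 0.15). Pdlim7, a PDZ and LIM protein of actin bundles, averaged 79.6 ± 9.39 CPM in MCT rats and 31.9 ± 4.97 CPM in PBS rats (SD, n = 4 each). Its log2 fold change of 1.30 in Week 3 had an adjusted p of 0.00011 by edgeR. Actn1, the actin-crosslinking alpha-actinin, had 0.66 (SE 0.13) on the same scale, Mustn1 had 0.64 (SE 0.15) and Map3k7cl had 1.37 (SE 0.37). Sorbs2, an adaptor at actin anchor sites, was called higher in Week 2 at 1.19 (SE 0.10) and had 0.50 (SE 0.12) in Week 3.

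The genes of this list called lower in Week 3 were Synm, Pdlim3, Nexn and Aoc3. In which cells of the lung they were lower was not tested. Synm, whose product synemin forms filaments with desmin, averaged 164 ± 14.7 CPM in MCT rats and 265 ± 22.7 CPM in PBS rats of Week 3 (SD, n = 4 each), with a log2 fold change of -0.71 (SE 0.11) there and of -0.69 (SE 0.09) in Week 2. Pdlim3, a relative of Pdlim7, had a log2 fold change of -0.77 (SE 0.18) in Week 3 and -0.78 (SE 0.12) in Week 2. Nexn, an actin-binding protein, had -0.80 (SE 0.19) in Week 3, and without PBS replicate 2 it had -0.55 and was no longer called. Aoc3, an amine oxidase on the surface of vessel wall cells, had -1.24 (SE 0.18). For Synm, Pdlim3, Nexn and Aoc3 all 4 MCT rats of Week 3 lay below all 4 PBS rats, as they did in 15.1% of all genes. Speg, Cald1, Smtnl2 and Nrip2 were not called in Week 3 by edgeR, at 0.61, 0.14, -0.05 and -0.60. Speg was called by DESeq2 (0.62), by limma-voom (0.67) and by edgeR without MCT replicate 1 (0.79), and without PBS replicate 3 Sorbs2 was, at 0.61.

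**Figure D3:**
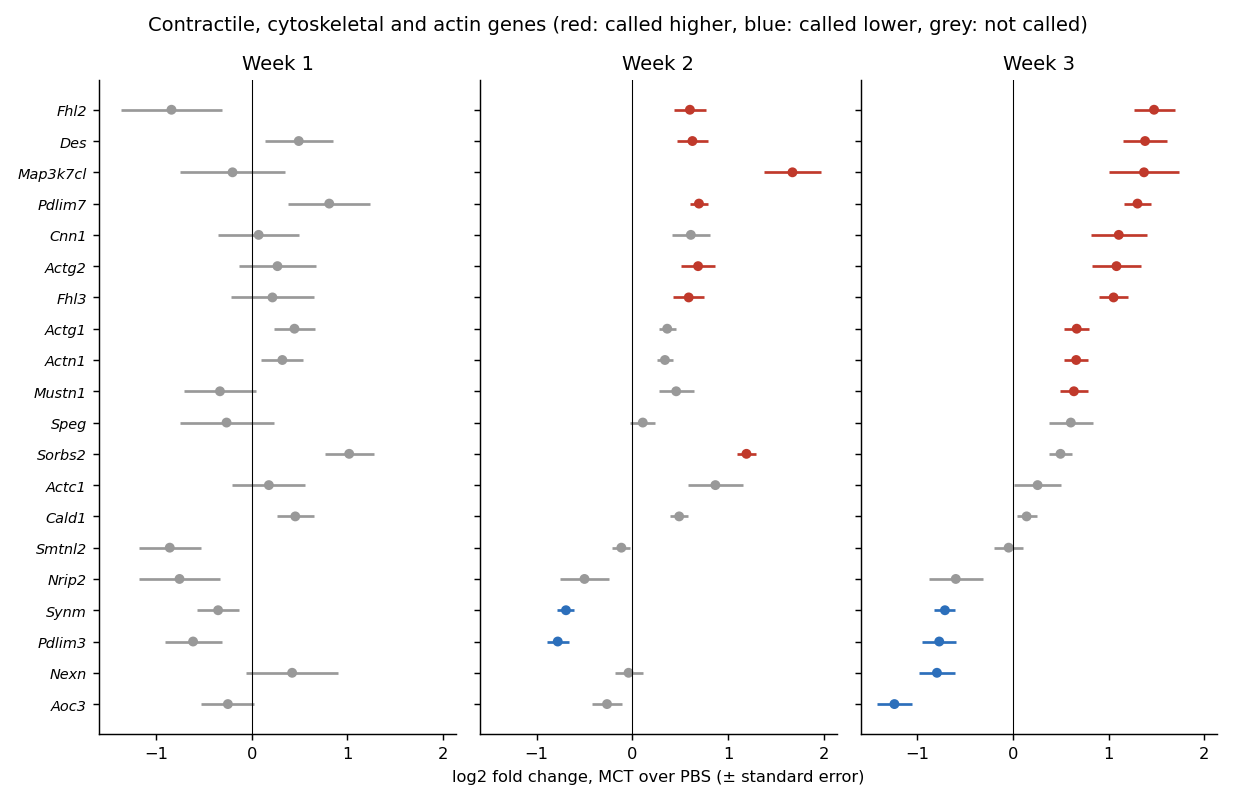
Log2 fold change of MCT over PBS (horizontal axis, with standard error) for the named contractile, cytoskeletal and actin genes in Weeks 1, 2 and 3, ordered by Week 3; red was called higher, blue called lower and grey not called. In Week 3 the genes ranged from Fhl2 at 1.48 to Aoc3 at -1.24, with Actg2 at 1.08 and Cnn1 at 1.11, and no gene was called in Week 1.

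Within the actin family, 3 of 6 genes carry a symbol here, because the study called them in these samples, and 2 were called higher in Week 3. Actg1, the cytoplasmic gamma actin of all cells, averaged 674 ± 71.3 CPM in MCT rats and 419 ± 66.0 CPM in PBS rats of Week 3 (SD, n = 4 each), a log2 fold change of 0.67 (SE 0.13). Actg2 was the other, and Actc1 was not called.

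Of 26 listed genes that set calcium and myosin phosphorylation, 12 carry a symbol here, because the study called them in these samples. The others were not seen, so the counts are not independent evidence of a direction of the whole list. In Week 3, 7 were called lower, beside 11% of all genes, with a median log2 fold change of -0.67, against 0.01 over all genes. None was called higher by edgeR, DESeq2 or limma-voom, 2 had higher values at an unadjusted p below 0.05, and 1 was called higher with no filter on low counts or no fold threshold. In a single model of all 24 libraries 2 were called lower, and without MCT replicate 2 or MCT replicate 4 of Week 3, 4 were.

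Regulators of myosin phosphorylation were among those called lower. Ppp1cb, the catalytic subunit of myosin phosphatase, averaged 359 ± 65.1 CPM in MCT rats and 703 ± 120.2 CPM in PBS rats of Week 3 (SD, n = 4 each), a log2 fold change of -0.99 (SE 0.16). Rock1 and Rock2, kinases that inhibit this phosphatase, had log2 fold changes of -0.93 (SE 0.19) and -0.85 (SE 0.13). The cation channel gene Trpc1 had -0.72 (SE 0.20), and its call was lost without PBS replicate 2 or MCT replicates 2, 3 or 4 in turn, at -0.68 to -0.59. In Week 2, 2 were called higher and none lower: Kcnmb1, the beta subunit of the large potassium channel of smooth muscle, at 0.70 (SE 0.18), and the channel gene Trpc6, named after its values were seen, at 0.63 (SE 0.16). Kcnmb1 was no longer called without MCT replicate 1, at 0.63. It was also not called in single models of 22 or 24 libraries or with the replicate number as a block, at 0.70 in each. At an unadjusted p below 0.05 edgeR counted 1 lower in Week 2, and DESeq2 and limma-voom called none lower.

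Of 33 listed receptor and cyclic nucleotide genes, 17 carry a symbol here, and the same limit holds for their counts. In Week 3, 1 was called higher and 9 lower, with a median log2 fold change of -0.74, beside 11.1% and 11% of all genes. In Week 2, 1 was called higher and 6 lower, beside 6% and 3.43% of all genes. In the single model of all 24 libraries 4 were called lower in Week 3 and none in Week 2. Gucy1a1, a subunit of the nitric oxide receptor soluble guanylate cyclase, had 129, 103, 122 and 103 CPM in MCT rats of Week 3, against 246, 337, 276 and 215 CPM in PBS rats. Each MCT rat lay below each PBS rat. The log2 fold change of Gucy1a1 was -1.26 (SE 0.15), with an adjusted p of 0.000208 by edgeR, and that of Gucy1b1, the other subunit, was -0.96 (SE 0.15).

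Among the other genes called lower in Week 3, Pde3a, which breaks down cyclic nucleotides, had a log2 fold change of -1.47 (SE 0.17), Rgs4, a regulator of G protein signalling, -1.38 (SE 0.44), and Npr3, the clearance receptor of natriuretic peptides, -0.99 (SE 0.21). The gene called higher was Htr2b, a serotonin receptor, at 1.56 (SE 0.53). Single rats decided the calls of Htr2b and Rgs4, each of which was lost in 6 of 8 fits that left out 1 rat (all but those without MCT replicate 2 or PBS replicate 3 for Htr2b, and without PBS replicates 3 or 4 for Rgs4). Over the 8 fits the log2 fold change was 1.17 to 1.80 for Htr2b and -1.62 to -1.04 for Rgs4.

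Of 15 listed transcription factors of smooth muscle, 4 carry a symbol here, because the study called them in these samples. The others were not seen. In Week 3, 3 were called lower, beside 11% of all genes, which is not a like comparison. Hey1, a target of Notch signalling, had a log2 fold change of -1.54 (SE 0.24), Klf5 had -0.90 (SE 0.19), and Klf4, known as a repressor of contractile genes, had -0.86 (SE 0.13). Hey1 was also called lower in Week 2, at -1.52 (SE 0.20).

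**Figure D4:**
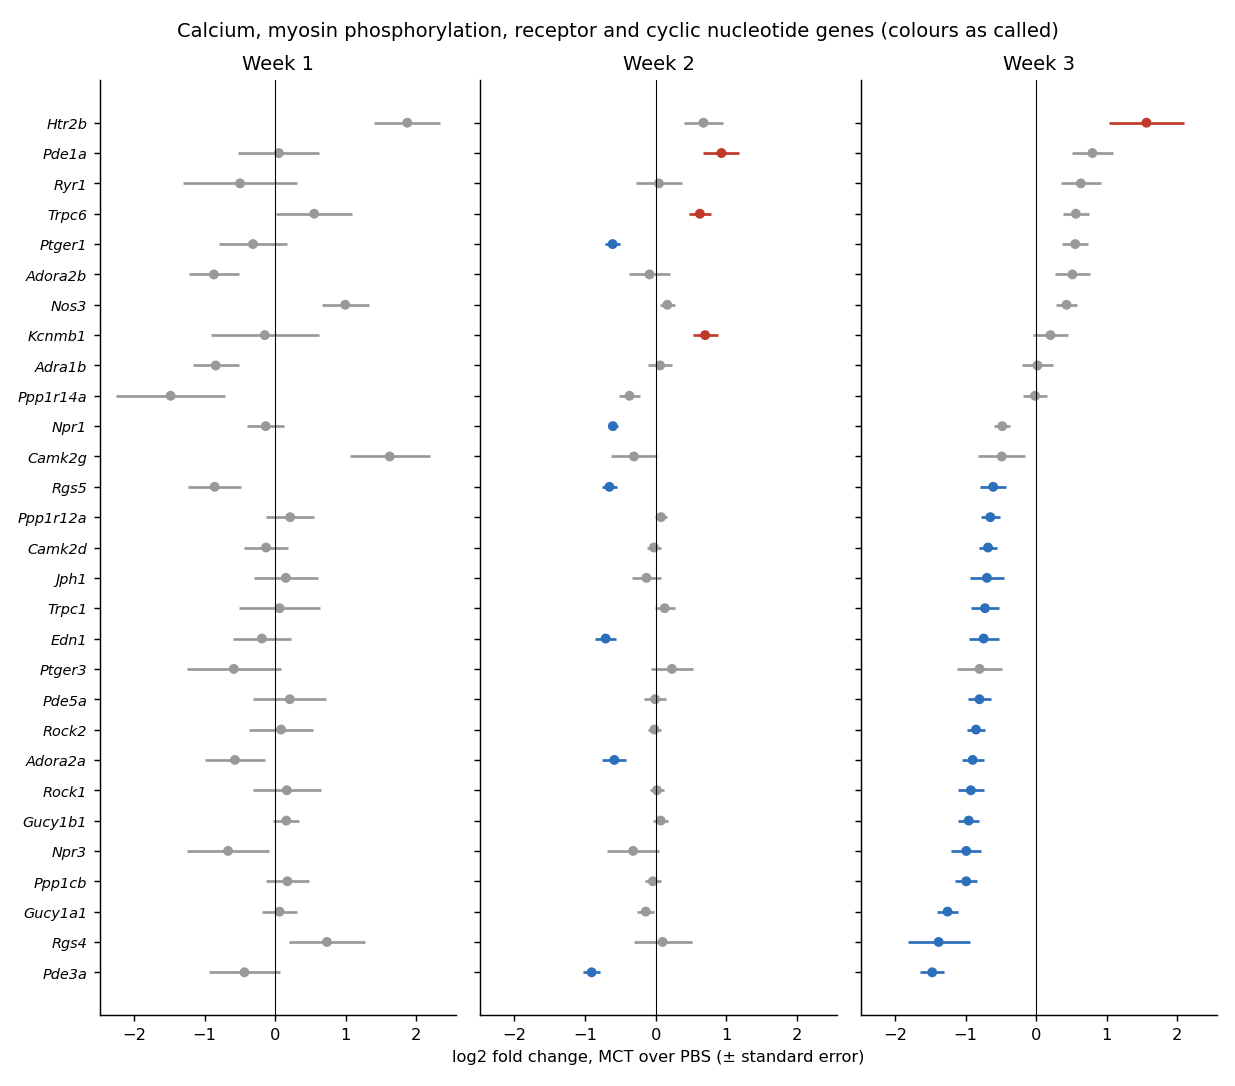
Log2 fold change of MCT over PBS (horizontal axis, with standard error) for the named calcium, myosin phosphorylation, receptor and cyclic nucleotide genes in Weeks 1, 2 and 3, ordered by Week 3; red was called higher, blue called lower and grey not called. In Week 3 the genes ranged from Htr2b at 1.56 to Pde3a at -1.47, with Gucy1a1 at -1.26.

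Many of these regulators are made in other lung cells as well, and markers of other cells moved in the same weeks. Markers too carry a symbol only where the study called them in these samples. The counts of markers are thus not independent evidence of a direction, and listed markers without a symbol were not seen. Over all genes, 11.1% were called higher and 11% lower in Week 3. All 14 endothelial markers with a symbol (of 18 listed) were called lower in Week 3, and their summed level was 2073 to 2441 CPM in MCT rats and 7389 to 8003 CPM in PBS rats. Of 11 macrophage markers (of 14 listed) 9 were called higher, with sums of 2768 to 3898 CPM in MCT rats and 707.5 to 1068 CPM in PBS rats. Of 13 markers of fibroblasts and myofibroblasts (of 19 listed) 8 were called higher, with sums of 3178 to 3559 CPM in MCT rats and 1754 to 2541 CPM in PBS rats. All 5 pericyte markers with a symbol (of 14 listed) were called lower, with sums of 92.6 to 119 CPM in MCT rats and 233 to 285 CPM in PBS rats, and 1 of them, Rgs5, is also in the receptor list. The call of Rgs5 was kept without PBS replicate 2 or 3 and lost without any other rat, at -0.75 to -0.42 over the 8 fits, and that of Lamc3 was lost in the single model of 24 libraries (-1.11). The part of these cells in the results above was not tested.

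Airway and alveolar markers moved less evenly. Of 6 airway epithelial markers with a symbol (of 13 listed), 1 was called higher and 2 lower in Week 3, with sums of 4700 to 9414 CPM in MCT rats and 11086 to 17985 CPM in PBS rats. Of 6 alveolar epithelial markers (of 11 listed) 2 were called lower, with sums of 13185 to 15488 CPM in MCT rats and 11209 to 14333 CPM in PBS rats. No skeletal muscle marker of 11 listed carries a symbol here, and of 15 cardiac muscle markers Actc1 alone does.

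Between rats of 1 group the members did not follow the markers so closely as each other. Of 12 relations computed between a member and a marker sum over 22 rats, the strongest were those with the endothelial sum, at r = -0.64 (rho = -0.55) for Actg2 and -0.58 (rho = -0.52) for Cnn1. Their permutation p was 0.0166 and 0.0184 for r and 0.0401 and 0.0474 for rho, and neither passed after adjustment (0.110 for each r and 0.284 for each rho). Without the 2 rats farthest from the median of the marker sum r was -0.50 for both. With the fibroblast and myofibroblast sum r was 0.46 for Actg2 and 0.40 for Cnn1 (adjusted permutation p = 0.435 for each). Without the 2 rats farthest in that sum it was 0.31 and 0.28. With the airway sum r was -0.11 for Actg2 and -0.14 for Cnn1, and without the 2 farthest rats it was -0.42 and -0.46, so these values depend on those 2 rats.

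Exonic length moved with the direction of change in Week 3. Genes of 1200 to 1800 exonic bases, which include both members, had a median log2 fold change of 0.09 and 13.5% of them were called higher, while genes of at least 4000 bases had a median of -0.18. Its part in the results was not tested.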

How the data were processed

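Lung poly-A RNA of 24 rats, 4 MCT and 4 PBS rats at each of 3 weeks, was sequenced from a directional library kit. The authors aligned reads with HISAT2 2.0.5 to Rnor_6.0, assigned them to genes with featureCounts 2.0.3 and deposited 1 table of raw counts per gene for all libraries, and they tested it with DESeq2 1.32.0. The strand setting, the handling of multi-mapped reads and the annotation release are not given in the sources used here. The table holds identifiers only, and 3275 of them were paired with a symbol through the gene tables of the study, which list genes it called.

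Each week was fitted on its 8 libraries with edgeR 4.0.16 in R 4.3.3 (TMM, filterByExpr, quasi-likelihood test, Benjamini-Hochberg over all genes tested), and changes of the MCT effect between weeks on all 24. Alternatives were DESeq2 1.42.0, limma-voom (limma 3.58.1), other scalings, filters and fits, a replicate block and leaving out each rat. Each library is 1 rat, so p-values measure the spread between rats. Correlations used log2 CPM with a prior count of 2 minus group means, without PBS replicates 1 and 3 of Week 1. Fits were tested on simulated data. The members and the gene lists were chosen with earlier results of these data known. From each list up to 6 called genes with a mean of at least 5 CPM are named, by largest log2 fold change, and of the contractile and actin lists every gene of that level. Exceptions are marked where they stand, and 1 gene is not reported here. Promoter sequences are those of RefSeq for GRCr8, matched by symbol to 15 genes.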

Additional observations from a re-analysis of the deposited data

Results flagged for a closer look

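PBS replicate 4 of Week 2 stood apart from the other PBS rats of that week in Actc1, at 54.6 CPM against 35.6 to 37.1 CPM, a gap of 0.92 of the group's range. Chance passes the threshold for such a gap in about 1 in 20 groups, and Actg2 and Cnn1 of this rat, at 63.2 and 71.1 CPM, did not stand apart by this measure.

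For 6 named genes of the contractile, actin, calcium, receptor, transcription factor and pericyte lists the MCT effect in Week 3 differed from that in Week 1 in the model of 24 libraries by edgeR, and neither member passed this test. Another 6 named genes that passed were markers of endothelium (Tek, Calcrl, Sema3g and Efnb2) and macrophages (Ctsk and Gpnmb). Fhl2, a LIM-domain protein, changed by 2.32 on the log2 scale. The changes were -1.30 and -1.10 for the guanylate cyclase subunits Gucy1a1 and Gucy1b1, -1.22 for Klf4, -1.14 for the myosin phosphatase subunit Ppp1cb and -1.06 for the pericyte marker Enpep. Gucy1a1 and Gucy1b1 passed in all 24 alternative fits, those without 1 rat included, and Fhl2 in all but the replicate block. Enpep was lost in 13, Klf4 in 11 and Ppp1cb in 9 of them.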

How the results depend on the processing

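The Week 3 calls of both members were kept under 10 alternative fits, with log2 fold changes of 1.05 to 1.11 for Actg2 and 1.08 to 1.14 for Cnn1, and without each rat in turn, at 0.97 to 1.31 and 0.92 to 1.33. In Week 2 the log2 fold change of Actg2 fell short of the call with limma-voom (0.56), all 24 libraries in 1 fit (0.69), 22 libraries in 1 fit (0.68) and the replicate block (0.65), and it was 0.58 to 0.85 without each rat in turn. Cnn1 of Week 2 passed with no filter (0.61), at least 10 counts in every library (0.62) and DESeq2 (0.61), and had 0.48 to 0.77 without each rat. In Week 1 Cnn1 was negative with limma-voom (-0.027), in the fit of 22 libraries (-0.29) and without PBS libraries 1 and 3 (-0.33), and had -0.21 to 0.46 without each rat, while Actg2 had -0.0040 to 0.55 and Actc1 -0.032 to 0.49. Smtnl2 of Week 3 had -0.12 to 0.036. The change of the MCT effect from Week 1 to Week 3 was 0.51 to 1.07 for Actg2 and 0.64 to 1.29 for Cnn1 without each rat, and it passed for Cnn1 without PBS libraries 1 and 3 (1.42). Why these calls moved was not tested.

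Counts moved most in Week 1, where 11 genes were called higher, 0 with the replicate block, 41 with at least 10 counts in every library, 169 with DESeq2, 98 with limma-voom and 372 and 794 in the fits of 24 and 22 libraries. Genes called lower there were 3, against 0 with the replicate block, 13, 94, 44, 181 and 589 in the same order. In the fit of 24 libraries 262 genes were higher and 138 lower in Week 2 (966 and 553 otherwise), and 911 and 918 in Week 3 (1791 and 1775 otherwise). With no fold threshold 1595 were higher and 1309 lower in Week 2, and 2719 lower in Week 3. Of the contractile list 7 were called higher in Week 2, against 2 in the fit of 24 libraries, 3 in that of 22, and 4 with limma-voom or the replicate block. Of 98 values of other named genes, 33 were no longer called in the fit of 24 libraries, 8 in that of 22, and up to 6 in the other alternative fits, and none of them changed sign there. Of 97 values that were not called, 19 changed sign under an alternative.

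Replicate numbers did not pair the rats, with a correlation over 0.1 in 2 of 12 same-numbered pairs, and with the replicate block Actg2 had 0.65 in Week 2 (adjusted p = 0.0571 by edgeR). The SE of the log2 fold change was 0.40 for Actg2 and 0.42 for Cnn1 in Week 1, against 0.26 and 0.29 in Week 3, so smaller effects were detectable in Week 3.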
